A study of Mus musculus with 12 samples.

Results

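The genes described here are 38 genes of homologous recombination and of the Fanconi anemia pathway, chosen by name out of the 25078 genes in the deposited tables. All 38 were found, and all 38 were among the 14599 genes that passed the filter on low counts, so no member was lost to it. They were measured by RNA-seq in mouse LSK cells, a bone marrow fraction without lineage markers that carries Sca1 and c-Kit and holds hematopoietic stem cells and early progenitors. The 12 libraries form 4 groups of 3. The WT groups came from mice labelled wild type, called control in the sample titles. The CM groups came from mice with the Cbfb-MYH11 fusion, which joins the gene of core binding factor beta to that of a smooth muscle myosin and occurs in acute myeloid leukemia, taken at a preleukemic stage. In the IR groups the sorted cells received 3.5 Gy of radiation and were harvested 24 h later. The NIR cells were incubated alike without radiation. NIR and IR cells came from the same 6 animals, 1 library of each per animal, and libraries are named here by group and animal, such as CM NIR 2. The sources used here do not give age, sex or what drives the fusion. The library names mark the CM animals as CHW, WT animals 1 and 3 as C and WT animal 2 as WT, with no explanation of C or CHW.

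Homologous recombination repairs broken DNA by copying an intact sister chromatid. Nucleases first resect the broken end to single-stranded DNA, then BRCA2 and its partners help to build a protein filament on it that searches for the template, and strand exchange proteins stabilise and use that filament. The Fanconi anemia pathway acts on crosslinks between the DNA strands: a core complex of FANC proteins attaches ubiquitin to the FANCD2-FANCI clamp, nucleases then unhook the crosslink, and the broken strand is handed to recombination. Inherited loss of the pathway causes bone marrow failure, and blood stem cells depend on it. Most of these genes are expressed mainly in dividing cells.

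The libraries held 68.5 M to 111 M counted reads (M for mega), and the lowest count of any member in any library was 447. Trp53inp1, a p53 target, was higher after irradiation in both genotypes. The log2 difference was 2.10 ± 0.12 (SE, n = 3) in WT, with an adjusted p of 8.75e-05 (edgeR quasi-likelihood test). In CM it was 1.39 ± 0.12, with an adjusted p of 0.00421 by the same test. These were the lowest adjusted p-values of all genes tested, so this gene is no independent check of the treatment. On the first principal component, which held 51.5% of the variance, CM NIR 1, CM IR 1 and CM NIR 3 lay away from the other libraries. CM IR 3 did not lie with them, and the deviations of the 2 libraries of that animal from their group means correlated at 0.13, against 0.41 to 0.84 in the other 5 animals. Results within CM pairs are therefore given with and without CM animal 3. On the second principal component, which held 21.9% of the variance, both libraries of CM animal 2 lay apart. They stood at -67.9 in NIR and -57.2 in IR, while the other libraries ran from -4.49 to 37.7. Kit was present at 148 to 284 CPM, counts scaled to library size, and Ly6a, which encodes Sca1, at 42.0 to 457 CPM. Macrophage markers were also present, with a summed level of 8 genes from 524 to 3070 CPM. The 9 neutrophil markers summed to 142 to 1562 CPM, with Mmp8 at 61.5 to 1427 and S100a8 at 3.09 to 121 CPM, while Ly6g was under 1 CPM in every library. The 8 T and NK cell markers summed to 43.9 to 288 CPM, with Gzmb at 21.3 to 278 and Nkg7 at 7.29 to 39.6 CPM, while Cd3e was under 1 CPM in every library.

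Levels are compared between members in the authors' RPKM values, read counts scaled by gene length and library size, which correct for gene length. Usp1, the deubiquitinase that strips ubiquitin from FANCD2, had the highest mean level, 70.3 RPKM over the 12 libraries, and Rad51c the lowest, 1.87 RPKM. The level of Usp1 was 66.8, 82.2 and 84.8 RPKM in WT NIR, 61.9, 74.0 and 75.8 in WT IR, 67.9, 67.2 and 70.4 in CM NIR and 58.8, 62.1 and 72.2 in CM IR. These ranges overlap between all 4 groups. Rad50, the ATPase of the complex that first binds a broken end, followed at 29.6 RPKM, ranging from 23.5 to 34.3 over the libraries. Its level in single WT libraries was 27.0, 34.2 and 34.3 RPKM in NIR and 27.3, 31.4 and 32.3 in IR. In CM it was 25.7, 32.1 and 27.7 RPKM in NIR and 23.5, 28.9 and 31.1 in IR. Dna2, Blm and Rad54l lay next, with means of 28.7, 25.9 and 25.4 RPKM.

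**Figure D1:**
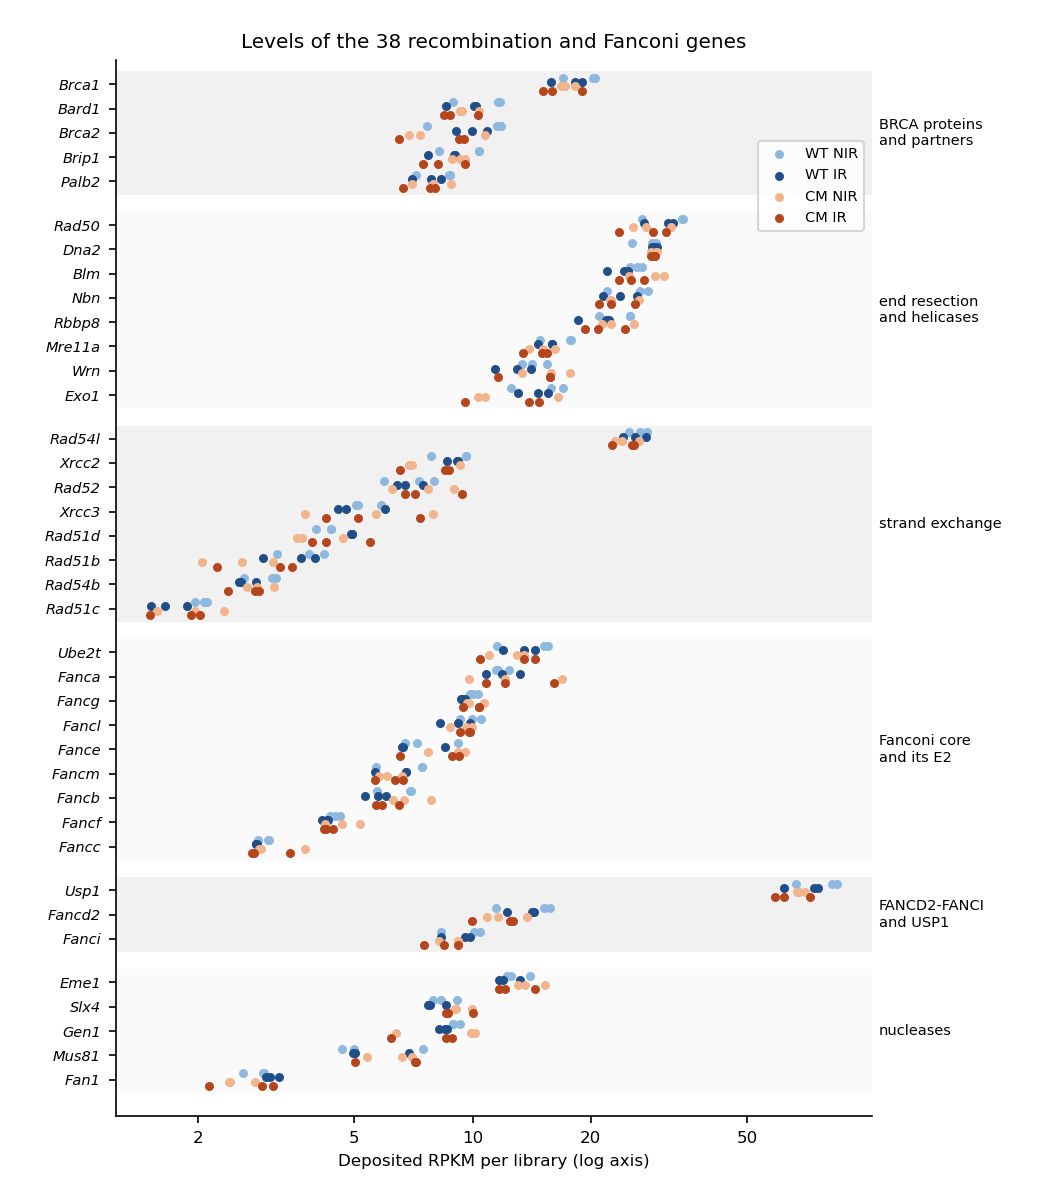
Deposited RPKM of the 38 genes (log axis) in each of the 12 libraries, 1 point per library coloured by group, with genes sorted by mean level within 6 role groups. Usp1 stands highest at 70.3 RPKM and Rad51c lowest at 1.87 RPKM, and the 4 groups overlap for most genes.

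Of the 5 BRCA proteins and partners, Brca1, the ubiquitin ligase that forms a dimer with Bard1, had the highest mean level, 17.8 RPKM. Its level was 17.0, 20.5 and 20.2 RPKM in WT NIR and 15.9, 18.3 and 19.0 in WT IR. In CM it was 16.8, 17.2 and 18.3 RPKM in NIR and 15.9, 15.1 and 18.9 in IR. Among the 8 strand exchange genes, Rad54l, a motor protein of strand invasion, had a mean of 25.4 RPKM, with a library range of 22.6 to 27.9. The other 7 genes of that group lay between 1.87 and 8.41 RPKM in the mean, so Rad54l was the only one of them above 10 RPKM. Among the 9 genes of the Fanconi core complex and its ubiquitin-conjugating enzyme, the latter, Ube2t, was highest at 13.2 RPKM, with a range of 10.5 to 15.5, and Fancc lowest at 2.98. Eme1, the partner of the nuclease Mus81, led the 5 nucleases at 13 RPKM, with a range of 11.7 to 15.3, and Fan1 was lowest at 2.79. Among the 8 resection genes and helicases the lowest, Exo1, still had 13.7 RPKM.

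The spread between animals was uneven over the members. The coefficient of variation of the CPM values within a group had a median of 9.69% in WT NIR, 8.87% in WT IR, 10.7% in CM NIR and 12.9% in CM IR. Xrcc3 varied most over the 12 libraries, with a highest value 2.12 times the lowest, followed by Rad51b at 2.05 times, Brca2 at 1.82 times and Exo1 at 1.78 times. Fancg was steadiest at 1.14 times, followed by Dna2 at 1.16 times. WT animal 1 was the lowest of its group for 28 of 38 members in NIR, against 43.6% of all genes tested, and for 29 of 38 in IR, against 41.9%. CM animal 1 was the lowest for 22 of 38 members in IR, against 36.3%, and for 15 of 38 in NIR, against 25.8%. WT animal 1 and CM animals 1 and 2 share 1 of the 2 series of library numbers, and what the series mark is not stated.

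The first comparison asks how the genes stood 24 h after irradiation in WT cells. None of the 38 members passed an adjusted p of 0.05 in either direction, where 0.116% of all genes tested were called higher and 0% lower (edgeR quasi-likelihood test, Benjamini-Hochberg). A lower fitted level in IR than in NIR was found for 34 of the 38, against 52.6% of all genes, with a median log2 difference of -0.09 over the members and -0.0089 over all genes. The differences ran from -0.29 to 0.21, and the standard error of a single member had a median of 0.13, or 0.0622 with the animal as a block. In bulk RNA, fewer cells of a type and less RNA per cell cannot be told apart.

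Fitting the animal as a block, which compares IR and NIR within the same mouse, brought the calls over all genes to 0.938% higher and 0.178% lower, and still called no member. The lowest adjusted p of a member in that fit was 0.0933, for Rbbp8, the cofactor that starts end resection and a gene singled out after its values were seen. Its level was 83.5, 99.4 and 99.6 CPM in WT NIR and 73.2, 86.2 and 87.6 in WT IR, lower in IR in each animal although the groups overlap. With the block the log2 difference was -0.19 ± 0.040 (SE). Before adjustment, 0 members had a p under 0.05 without the block, against 2.54% of all genes in the higher and 1.51% in the lower direction. With it, 8 members did in the lower direction, against 6.4% of all genes, and 1 in the higher, against 7.06%.

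The 3 members with the smallest p in WT were Rad51c, Fancb and Blm. Rad51c, a strand exchange gene, lies on chromosome 11 from 87376646 to 87404954 on the minus strand (mm10). Its level was 9.39, 8.66 and 9.16 CPM in WT NIR and 6.68, 7.23 and 8.26 in WT IR. All 3 IR values lay under all 3 NIR values. The fitted log2 difference was -0.29 ± 0.18 (SE, n = 3), with an adjusted p of 1 without the block and 0.25 with it. Fancb, a subunit of the core that holds the ubiquitin ligase Fancl, lies on chromosome X from 164980592 to 164997272 on the plus strand. It had 17.2, 20.7 and 20.9 CPM in WT NIR and 15.9, 17.1 and 18.03 in WT IR, so the groups overlap through animal 1. Its log2 difference was -0.20 ± 0.12, with an adjusted p of 1 and, with the block, 0.235. Blm, the helicase mutated in Bloom syndrome, lies on chromosome 7 from 80454993 to 80535119 on the minus strand. It had 127, 131 and 136 CPM in WT NIR and 110.1, 121 and 124 in WT IR, without overlap. Its log2 difference was -0.15 ± 0.10, with an adjusted p of 1 and, with the block, 0.263.

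The promoters of these 3 genes are shown because they were lower in IR in all 6 animals and had the smallest p in WT among such members. Each window runs from 250 bases before to 50 bases after a start site of the RefSeq annotation of GRCm38.p6, the assembly called mm10, and is given 5′ to 3′ on the strand of the gene. Rad51c has a pair of start sites in that table. Capitals mark matches to an E2F site, bound by regulators of genes for DNA synthesis, or to a CCAAT box, bound by NF-Y, on either strand. The Rad51c windows lie at chr11:87404457-87404756 and chr11:87404905-87405204, that of Fancb at chrX:164980342-164980641 and that of Blm at chr7:80534949-80535248.
Rad51c window 1: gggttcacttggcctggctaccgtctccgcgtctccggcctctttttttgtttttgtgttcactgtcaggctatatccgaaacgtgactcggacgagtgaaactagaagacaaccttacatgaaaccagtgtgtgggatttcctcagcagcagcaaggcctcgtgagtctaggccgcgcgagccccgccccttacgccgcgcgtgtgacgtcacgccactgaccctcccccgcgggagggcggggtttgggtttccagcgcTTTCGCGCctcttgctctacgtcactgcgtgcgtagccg
Rad51c window 2: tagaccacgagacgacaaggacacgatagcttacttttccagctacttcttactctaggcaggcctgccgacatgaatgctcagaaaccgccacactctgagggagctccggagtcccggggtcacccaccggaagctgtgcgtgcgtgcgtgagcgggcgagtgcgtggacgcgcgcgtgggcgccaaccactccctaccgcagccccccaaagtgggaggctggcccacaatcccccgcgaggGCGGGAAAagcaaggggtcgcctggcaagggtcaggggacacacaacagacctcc
Fancb: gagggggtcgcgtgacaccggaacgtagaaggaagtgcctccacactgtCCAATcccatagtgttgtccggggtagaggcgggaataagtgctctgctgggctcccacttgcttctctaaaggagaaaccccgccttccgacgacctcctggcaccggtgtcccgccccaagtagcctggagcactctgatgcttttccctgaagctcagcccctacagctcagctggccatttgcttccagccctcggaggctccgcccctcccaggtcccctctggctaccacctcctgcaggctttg
Blm: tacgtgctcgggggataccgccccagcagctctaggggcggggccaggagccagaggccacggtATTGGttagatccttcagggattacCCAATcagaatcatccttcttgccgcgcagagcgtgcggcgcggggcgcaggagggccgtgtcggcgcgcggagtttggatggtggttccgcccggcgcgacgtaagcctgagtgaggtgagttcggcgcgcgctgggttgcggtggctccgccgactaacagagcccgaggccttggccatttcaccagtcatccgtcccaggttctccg
The first Rad51c window holds the E2F octamer TTTCGCGC and the second holds GCGGGAAA, which reads TTTCCCGC on the other strand. The Fancb window holds 1 CCAAT box and the Blm window 2, of which 1 reads ATTGG.

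Of the 38 members, 28 had an entry in the promoter table, with 31 windows. An E2F octamer (TTTCCCGC, TTTGGCGC, TTTCGCGC or TTTGGCGG, both strands) was found in 5 of the 31 windows, or 16.1%, against 2.37% of the 32851 windows of all genes. The 4 genes that hold it are Bard1, Brca2, Fancg and Rad51c. CCAAT was in 18 windows, or 58.1%, against 37.4% of all. The cell cycle gene homology region, an element of genes of mitosis read here as TTTGAA or TTCGAA on both strands, was in 4 windows, or 12.9%, against 19.2%. Only 1 member window held both an E2F octamer and this element, 3.23% against 0.371%. The p53 consensus was in 0 windows, against 0.0731% of all. The member windows were richer in G and C, with a median of 59.7% against 52.7%, and the octamers are rich in both. These shares are descriptions of letters in the windows.

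The roles are given by their counts and medians. A lower fitted level in IR was found for all 5 BRCA proteins and partners, with a median log2 difference of -0.13, and for 7 of 8 resection genes and helicases, with a median of -0.11. It was found for 8 of 9 core genes, with a median of -0.09, for all 3 genes of the FANCD2-FANCI step, with -0.07, for 4 of 5 nucleases, with -0.08, and for 7 of 8 strand exchange genes, with -0.06. The 4 members with a higher fitted level were Rad51d, Fan1, Dna2 and Fanca. Rad51d, a strand exchange gene on chromosome 11 from 82871961 to 82890624 on the minus strand, had 31.4, 33.9 and 34.0 CPM in WT NIR and 38, 38.4 and 38.3 in WT IR. All 3 IR values lay above all NIR values, at a log2 difference of 0.21 ± 0.14 and an adjusted p of 1 (0.179 with the block). The groups did not overlap for 6 members below, against 6.63% of all genes, and for 2 above, Rad51d and Fan1, against 7.47%.

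Without a block edgeR called no gene of the mitosis, DNA replication, erythroid, neutrophil and macrophage lists in WT. The unadjusted p was under 0.05 for 1 mitosis, 4 erythroid and 1 neutrophil gene, all lower in IR. With the animal as a block edgeR called 2 erythroid genes lower, against 0.178% of all genes. In that fit an unadjusted p under 0.05 was found for 10 mitosis, 5 DNA replication, 5 erythroid and 1 neutrophil gene, all lower. Of all genes, 6.4% were lower by that measure. Without the block, a lower fitted level was found for 18 of 20 mitosis genes, with a median of -0.11, and for 18 of 20 DNA replication genes, with -0.05. The summed level of the mitosis list was 5555, 6645 and 6608 CPM in WT NIR and 5055, 5925 and 5946 in WT IR. All 7 tested erythroid genes were on the lower side, the median being -2.84. The summed level of the 13 erythroid genes in the table was 131, 14.3 and 32.9 CPM in WT NIR and 12.5, 3.28 and 4.74 in WT IR, with 6 globin genes at 0 counts in all libraries. The neutrophil list had 7 of 8 tested genes on the lower side, with a median of -0.33. The macrophage list had 4 of 8 genes lower, with a median of -0.01, at summed levels of 2732, 670.2 and 763 CPM in NIR and 2015, 1127 and 1270 in IR. Their part in the result was not tested.

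The members' median depended on single libraries. Without WT NIR 1 it was -0.17, and without any other WT library it lay between -0.12 and -0.06. Between 28 and 33 members had a lower fitted level when 1 WT library was left out. No member was called in any of these fits.

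The same comparison in CM cells also called no member, where 0.00685% of all genes were called higher and 0% lower. A lower fitted level in IR was found for 26 of the 38, against 50.4% of all genes, with a median log2 difference of -0.05 over the members and -0.0012 over all genes. The differences ran from -0.21 to 0.20, and the standard error of a single member had a median of 0.13, or 0.0622 with the animal as a block. None had an unadjusted p under 0.05, against 1.38% of all genes in the higher and 0.247% in the lower direction. With the animal as a block 0 genes were called in either direction, 0% each, while the unadjusted p was under 0.05 for 530 genes in the higher and 435 in the lower direction. By that unadjusted p in the block fit, 7 members were lower, against 2.98% of all genes, and 1 higher, against 3.63%. DESeq2 called 18 genes in this comparison and 0 members. The groups did not overlap for 0 members in either direction, against 0.986% of all genes below and 1.57% above.

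Fancb, Blm and Rad51d had the smallest p in CM. Fancb had 18.9, 20.03 and 23.5 CPM in CM NIR and 16.9, 17.4 and 19.6 in CM IR, lower in each animal, at a log2 difference of -0.21 ± 0.12 (SE, n = 3) and an adjusted p of 1. Blm had 148, 125 and 154 CPM in CM NIR and 136, 118 and 128 in CM IR, again lower in each animal, at -0.16 ± 0.10 and an adjusted p of 1. Both had been among the 3 with the smallest p in WT. Rad51d had 29.0, 36.6 and 28.1 CPM in CM NIR and 30.4, 42.5 and 33.4 in CM IR, higher in each animal, at 0.18 ± 0.14 and an adjusted p of 1. All 3 sets of values overlap between NIR and IR because the CM animals differ among themselves.

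**Figure D2:**
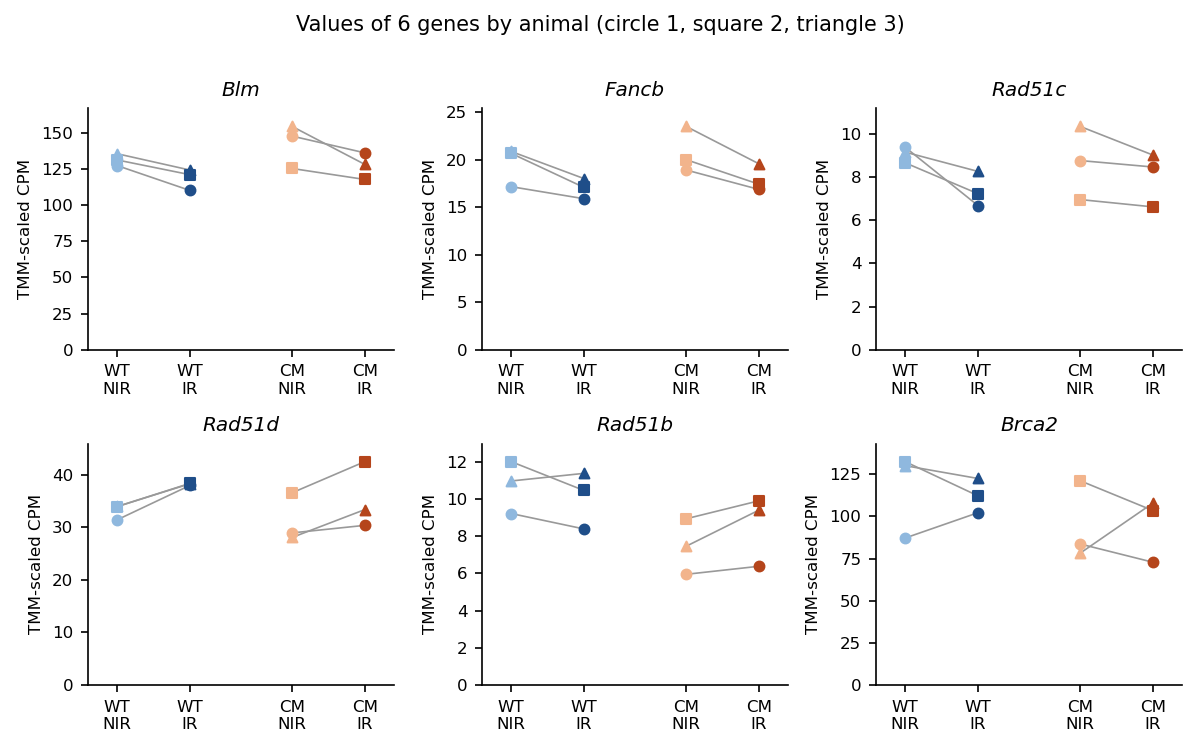
TMM-scaled CPM of 6 genes in each library, on linear axes from 0, with lines joining the NIR and IR library of an animal (circle animal 1, square animal 2, triangle animal 3). Blm, Fancb and Rad51c lie lower in IR in all 6 animals and Rad51d higher in all 6, while Rad51b and Brca2 go both ways.

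By role, a lower fitted level in CM was found for 4 of 5 BRCA proteins and partners, with a median of -0.09, for 7 of 8 resection genes and helicases, with -0.05, and for all 3 genes of the FANCD2-FANCI step, with -0.09. It was found for 5 of 9 core genes, with a median of -0.0052, for 4 of 8 strand exchange genes, with 0.0048, and for 3 of 5 nucleases, with -0.05. The mitosis list had 19 of 20 genes lower, with a median of -0.14, and the DNA replication list 13 of 20, with -0.03. Summed mitosis levels were 6370, 5882 and 7035 CPM in CM NIR and 5727, 5343 and 6248 in CM IR. All 7 tested erythroid genes were on the lower side, the median being -1.01, while 6 of 8 neutrophil genes were on the higher side, with a median of 1.61. The rise of the neutrophil list lay mostly in CM animal 3, where its mean log2 CPM went from 0.728 to 2.78. In CM animal 1 it went from 0.355 to 0.462 and in CM animal 2 from 0.712 to 0.921. The part of these lists in the result was not tested.

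Leaving out both libraries of CM animal 3 gave 32 members on the lower side at a median of -0.10, and called none. Leaving out 1 library at a time gave a median of -0.09 without CM NIR 1 or CM IR 3, -0.01 without CM NIR 2 and -0.02 without CM IR 1.

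Within animals, the difference between the IR and NIR library can be read for each mouse. It was below 0 for 27, 36 and 32 of the 38 members in WT animals 1, 2 and 3, and for 33, 31 and 17 in CM animals 1, 2 and 3. Of all genes tested, 52%, 50.1% and 49.9% were below 0 in the WT animals and 47.1%, 51.9% and 50.2% in the CM animals. The median log2 difference was -0.06, -0.11 and -0.10 in the WT animals and -0.12, -0.08 and 0.0076 in the CM animals. CM animal 3 was the exception among the 6, with 17 members below 0 and 21 above, near the share of all genes. Its mitosis list had a median of -0.16, lower than in the other 5 animals, which ran from -0.15 to -0.10. Its DNA replication list had a median of 0.03, while the other 5 ran from -0.11 to -0.03. Its p53 target list had the smallest median, 0.39, near the 0.53 of CM animal 1. That list had 1.24 in CM animal 2 and 0.88 to 1.37 in the WT animals. Cell markers also differed between the 2 libraries of this animal. From CM NIR 3 to CM IR 3, Ly6a went from 457 to 144 CPM, Cd34 from 229.6 to 497, Mecom from 1.04 to 10.4 and Hlf from 18.8 to 60.7, all 4 being markers of stem and progenitor cells. In the same libraries the summed mast cell and basophil list went from 1692 to 931 CPM. Of its genes, Fcer1a went from 450.5 to 175 CPM and Mcpt8 from 154 to 140, while Prss34 went up from 5.18 to 8.95. The summed neutrophil list went from 1562 to 706 CPM. That sum was mostly Mmp8, which went from 1427 to 542 CPM, and Cxcr2 went from 118 to 74.3. S100a8 went up from 8.80 to 35.4 CPM, S100a9 from 5.56 to 28.6 and Ngp from 2.05 to 20.6. Camp and Ltf also went up, while Ly6g and Retnlg stayed under 1 CPM. The mean log2 CPM of the neutrophil list went from 0.728 to 2.78. In CM animals 1 and 2, Ly6a was 306 and 46.7 CPM in NIR and 323 and 49.7 in IR. The part of these markers in the members' values was not tested.

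All 3 WT animals had a lower value in IR for 25 of 38 members, against 22.3% of all genes tested, and a higher one for 2, against 19.9%. All 3 CM animals had a lower value for 12, against 11.4%, and a higher one for 2, Rad51b and Rad51d, against 11.4%. Lower in all 6 animals were 12 members, against 6.58% of all genes. Without CM animal 3, 30 members were lower in the remaining pair of CM animals, against 29.8% of all genes, and 22 in the remaining 5 animals, against 12%. With RPKM in place of TMM-scaled CPM, 10 members were lower in all 6 animals, and with DESeq2's size factors 14.

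The 12 members lower in all 6 animals include 5 of the 8 resection genes and helicases: the nuclease Mre11a, its partner Nbn, Rbbp8, and the helicases Blm and Wrn. Among the 5 nucleases and their partners 3 were lower in all 6: Slx4, the scaffold that holds several nucleases, Eme1, and Gen1, which resolves crossed strands. From the core complex came 3 of 9, Fancb, Fancc and Fance. Of the 8 strand exchange genes it was Rad51c alone, and of the BRCA proteins and partners and the FANCD2-FANCI step none. All 5 BRCA proteins and partners were lower in CM animals 1 and 2 and higher in CM animal 3. The single differences of the 12 members ran from -0.49, for Rad51c in WT animal 1, to -0.0036.

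Rad51d was the single member higher in all 6 animals, against 5.93% of all genes. Its log2 difference within the animals was 0.27, 0.18 and 0.17 in WT and 0.07, 0.22 and 0.25 in CM. Rad51c and Rad51d, whose proteins sit in the same complex, thus lay on opposite sides of 0 in every animal. This pair was singled out after its values were seen, and neither gene was called in any fit. For Rad51b, a further subunit of that complex, the WT animals gave -0.14, -0.20 and 0.05, and the CM animals 0.10, 0.15 and 0.33. Brca2, shown because it varied most among the BRCA genes, gave 0.23, -0.24 and -0.09 in WT animals and -0.20, -0.23 and 0.47 in CM animals. No member was lower in all WT and higher in all CM animals or the reverse, against 0.479% and 0.445% of all genes.

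**Figure D3:**
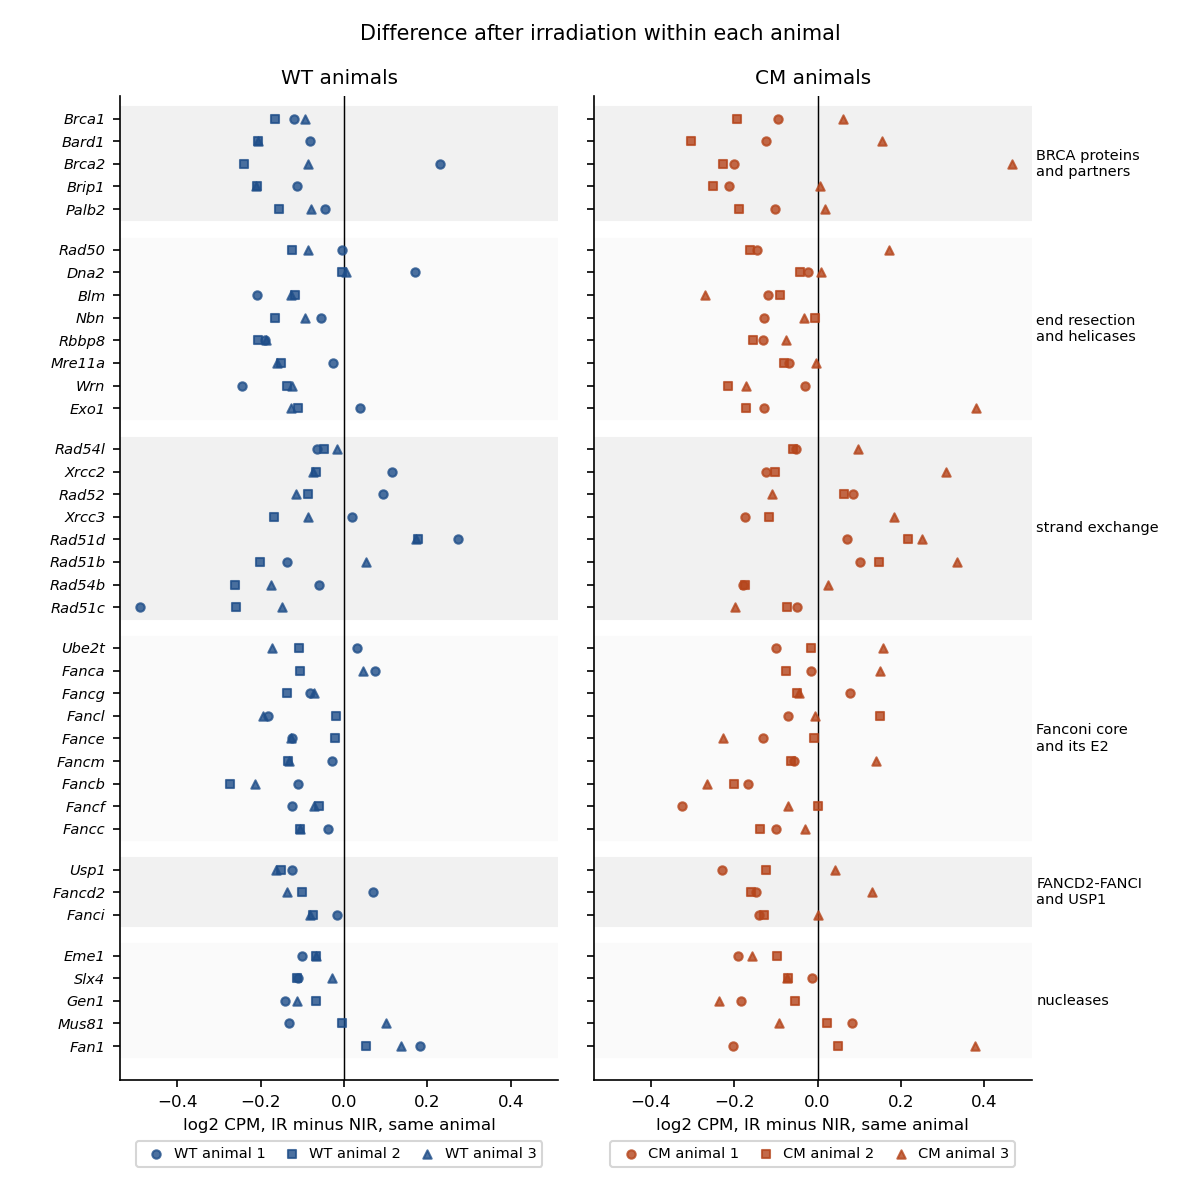
Log2 CPM in IR minus log2 CPM in NIR for the 38 genes within each animal, WT on the left and CM on the right, with 1 symbol per animal and a line at 0. WT points lie mostly below 0, for 27 to 36 of 38 genes, and CM animal 3 (triangles, right) lies below 0 for 17.

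The second pair of comparisons asks how CM cells stood against WT cells. Without irradiation no member was called, where 0.938% of all genes were called higher and 0.685% lower in CM. A lower fitted level in CM was found for 24 of 38 members, against 47.4% of all genes, with a median of -0.06 over the members and 0.02 over all genes. Before adjustment 1 member had a p under 0.05, lower in CM, against 6.5% of all genes, and 0 in the higher direction, against 8.56%. This was Rad51b, on chromosome 12 from 79297282 to 79814690 on the plus strand. It had 9.21, 12 and 10.96 CPM in WT NIR and 5.95, 8.93 and 7.45 in CM NIR. All 3 CM values lay under the lowest WT value, the only member without overlap below, against 7.84% of all genes, and 0 members lay apart above, against 8.14%. Its log2 difference was -0.53 ± 0.22 (SE, n = 3), with an adjusted p of 0.281 (edgeR quasi-likelihood test without a block).

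The next in order of p were Slx4 and Fancd2. Slx4 had 53.2, 47.9 and 46.0 CPM in WT NIR and 58.4, 52.5 and 52.7 in CM NIR, overlapping, at a log2 difference of 0.15 ± 0.10 and an adjusted p of 0.491. Fancd2, the clamp subunit that receives ubiquitin, had 64.7, 84.7 and 87.9 CPM in WT NIR and 61.3, 77.1 and 65.2 in CM NIR, overlapping, at -0.22 ± 0.15 and an adjusted p of 0.520. By role, a lower fitted level in CM was found for all 5 BRCA proteins and partners, with a median of -0.14, and for all 3 genes of the FANCD2-FANCI step, with -0.18. It was found for 5 of 8 resection genes and helicases, with -0.06, and for 6 of 8 strand exchange genes, with -0.07. It was found for 3 of 9 core genes, with a median of 0.07, and for 2 of 5 nucleases, with 0.12.

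After irradiation no member was called either, where 0.39% of all genes were called higher and 0.274% lower in CM. A lower fitted level in CM was found for 21 of 38, against 47.1% of all genes, with a median of -0.03 over the members and 0.02 over all genes. None had an unadjusted p under 0.05, against 7.19% of all genes higher and 4.64% lower. Slx4 had the smallest p. It had 49.3, 44.3 and 45.0 CPM in WT IR and 57.9, 49.95 and 50.2 in CM IR. All 3 CM values lay above all WT values, the only member apart above, against 9.23% of all genes, and 0 lay apart below, against 8.36%. Its log2 difference was 0.19 ± 0.10, with an adjusted p of 0.498. Fancd2 had 67.9, 79.0 and 79.9 CPM in WT IR and 55.4, 69.0 and 71.4 in CM IR, at -0.21 ± 0.15 and an adjusted p of 0.648. Fan1, a nuclease of crosslink repair, had 14.5, 14.8 and 15.6 CPM in WT IR and 10.3, 14.1 and 15.2 in CM IR, at -0.18 ± 0.15 and an adjusted p of 0.711. For both, the groups overlap.

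**Figure D4:**
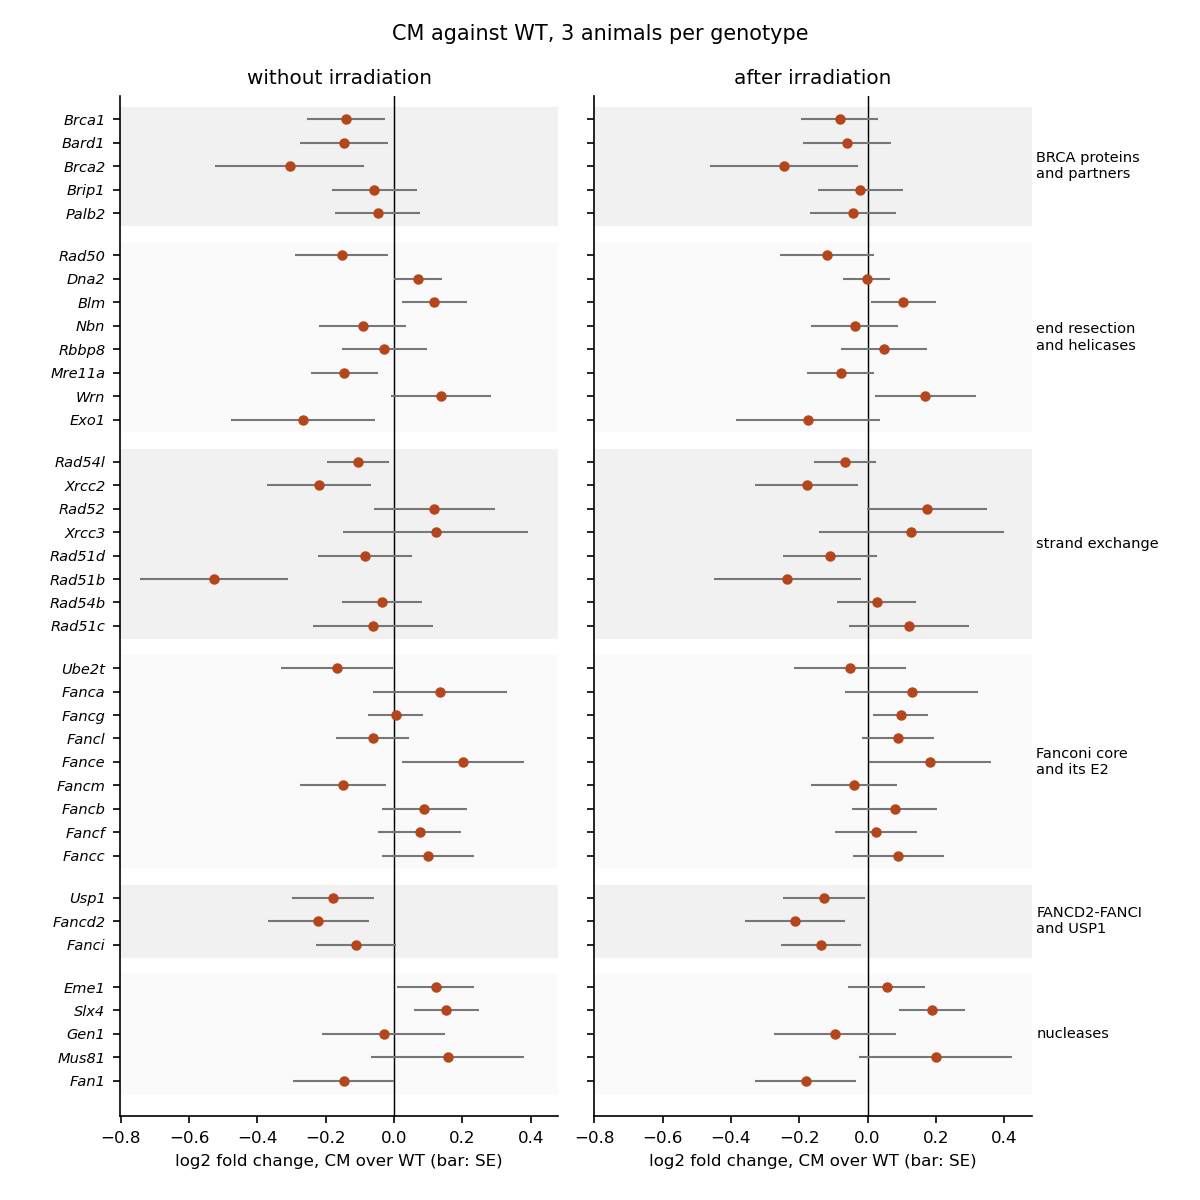
Fitted log2 fold change of CM over WT for the 38 genes without (left) and after (right) irradiation, 3 animals per genotype, with bars of 1 standard error and a line at 0. Rad51b without irradiation lies farthest from 0, at -0.53 ± 0.22, and most bars reach or cross 0.

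By role after irradiation, all 5 BRCA proteins and partners had a lower fitted level in CM, with a median of -0.06, as had all 3 genes of the FANCD2-FANCI step, with -0.14. The core genes had 2 of 9 lower, with a median of 0.09, the nucleases 2 of 5, with 0.06, the resection genes and helicases 5 of 8, with -0.02, and the strand exchange genes 4 of 8, with -0.02. The genotype comparisons with and without irradiation use the same 6 animals, and so do not check each other.

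The genotypes also differed in markers of other cells. Mast cell and basophil markers had a higher fitted level in CM for 6 of 8 genes without irradiation, with 2 called, and for 7 of 8 after it, with 1 called. Their summed level was 232 to 588 CPM in WT NIR and 279 to 1692 in CM NIR, and 249 to 396 CPM in WT IR and 317 to 1429 in CM IR. CM animal 2, at 279 CPM in NIR and 317 in IR, lay within the WT range in both. The CM values of Cpa3 and Fcer1a lay above all WT values of the same treatment. Prss34 was lower in CM, with 61.95, 12.45 and 16.55 CPM in WT NIR and 4.11, 1.35 and 5.18 in CM NIR. In IR it had 41.75, 17.5 and 20.73 CPM in WT and 4.44, 1.8 and 8.95 in CM, again without overlap. Mcpt8 overlapped between the genotypes in both. Tpsb2 and Mcpt4 stayed under 3 CPM in every library. Macrophage markers had a higher fitted level in CM for 7 of 8 genes in both comparisons, with the remaining gene called lower in each, at a summed level of 524 to 2749 CPM in CM NIR and 670.2 to 2732 in WT NIR. Of the neutrophil genes 6 of 8 were on the lower side in CM without irradiation, with a median of -3.89, 2 called lower and 1 called higher, and 5 of 8 after it, with a median of -1.73 and 0 called. The erythroid genes were on the higher side in CM for 5 of 7 without irradiation, with a median of 0.40, and for 7 of 7 after it, with a median of 1.85, and 0 were called. The mitosis list had 17 of 20 genes higher in CM without irradiation, with a median of 0.06, and 15 of 20 after it, with 0.04. The DNA replication list had 17 of 20 genes lower in CM without irradiation, with a median of -0.07, and 15 of 20 after it, with -0.04. The part of these lists in the members' values was not tested.

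The medians depended on the libraries in the fit. Without irradiation the median was -0.12 without WT NIR 1, -0.10 without CM NIR 2, -0.09 without CM NIR 3 and -0.02 without WT NIR 3. After irradiation it was -0.10 without WT IR 1, -0.08 without CM IR 3 and -0.02 without CM IR 2. It lay above 0 without WT IR 2, at 0.0063, WT IR 3, at 0.01, or CM IR 1, at 0.04. With the series of the library numbers as a term, 21 members had a lower fitted level in CM without irradiation and 16 after it, with medians of -0.01 and 0.01, and no member was called.

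The last comparison tests whether the response to irradiation differed between the genotypes. No gene was called, 0% in either direction, while the unadjusted p was under 0.05 for 49 genes (0.336%) above and 57 (0.39%) below 0, none of them a member. With the animal as a block again 0 genes were called in either direction. The unadjusted p in that fit was under 0.05 for 161 genes above and 256 below 0, none of them a member. DESeq2 and limma-voom called 0 genes as well, and limma on log2(RPKM + 1) called 1, not a member. The difference, CM minus WT, was above 0 for 26 members and below for 12, against 46.6% of all genes below, with a median of 0.04 over the members and 0.0086 over all genes. The standard error of a single member's difference had a median of 0.18, or 0.088 with the animal as a block. The smallest p belonged to Fancl, the ubiquitin ligase of the core complex. It had 16.8, 17.96 and 18.9 CPM in WT NIR and 14.8, 17.7 and 16.6 in WT IR, against 17.6, 15.8 and 18.1 in CM NIR and 16.7, 17.6 and 17.98 in CM IR. All 4 ranges overlap, and the difference was 0.15 ± 0.15 with an adjusted p of 1.

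For Rad51b, with 8.38, 10.5 and 11.4 CPM in WT IR and 6.38, 9.89 and 9.39 in CM IR, the difference was 0.29 ± 0.30. Fancg, a core subunit, had 27.9, 28.4 and 27.1 CPM in WT NIR, 26.4, 25.9 and 25.8 in WT IR, 27.0, 29.5 and 27.1 in CM NIR and 28.5, 28.6 and 26.3 in CM IR. In WT its IR values lay under all NIR values, and in CM the groups overlap. Its difference was 0.09 ± 0.11, and both had an adjusted p of 1. The number of members below 0 was 7 without CM NIR 2, 18 without WT NIR 2 or WT NIR 3, 20 without CM IR 3 and 21 without WT IR 1 or without both libraries of CM animal 3. The median was 0.11 without WT NIR 1, 0.10 without CM NIR 2, 0.09 without CM IR 1 and 0.06 without WT IR 3. It was 0.02 without CM NIR 1, 0.01 without WT NIR 2 or CM IR 2 and 0.0015 without WT NIR 3. It lay below 0 without WT IR 1, at -0.0075, or CM IR 3, at -0.01.

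Other genes of the same pathways were read from a list of 60 names, of which 52 were in the table and 51 were tested. The edgeR fit without a block called none in any of the 5 comparisons. At an unadjusted p under 0.05 in that fit, 1 was lower in IR in WT, against 1.51% of all genes. In CM 1 was higher, against 1.38%. Between genotypes 3 were lower in CM without irradiation, against 6.5%, and 3 after it, against 4.64%. None was higher in CM, against 8.56% and 7.19%. For the difference of the responses there were 0, against 0.336% above and 0.39% below 0. In WT 37 of the 51 had a lower fitted level in IR, or 72.5%, against 52.6% of all genes, with a median of -0.04. In CM it was 34, or 66.7%, against 50.4%, with a median of -0.03. Rad51ap1 had the smallest p of the list in WT, with 48.6, 44.9 and 47.6 CPM in NIR and 42.3, 40.5 and 41.6 in IR. The groups do not overlap, and it was lower in all 6 animals. Its log2 difference was -0.18 ± 0.07 with an adjusted p of 1 (edgeR quasi-likelihood test). Sfr1, a factor of strand exchange, followed at -0.14 ± 0.07 in WT and -0.11 ± 0.07 in CM, and was also lower in all 6 animals. So were Spidr, Rmi1, Recql, Rtel1, Uimc1, Polq, Smc5 and Smc6, against 6.58% of all genes. With the animal as a block edgeR called 0 genes of the list in WT and 0 in CM. The lowest adjusted p of the list in WT in that fit was 0.0719, for Smc6, at a log2 difference of -0.21.

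Between the genotypes, Dmc1 and Faap20 had the smallest p of the list both without and after irradiation. Dmc1, a recombinase of meiosis, was low in every library, with 0.937, 0.944 and 0.564 CPM in WT NIR and 0.319, 0.356 and 0.202 in CM NIR. In IR it had 1.13, 1.14 and 0.986 CPM in WT and 0.348, 0.470 and 0.658 in CM. The CM values lay under all WT values in both. The log2 difference was -1.47 ± 0.33 without irradiation, with an adjusted p of 0.0558, and -1.14 ± 0.32 after it, with 0.146 (edgeR). DESeq2 gave adjusted p-values of 0.00185 and 0.0194, past the threshold in both, and edgeR without CM NIR 2 gave 0.0399 for the NIR comparison. In CM Dmc1 also had the smallest p of the list for IR against NIR, at 0.75 ± 0.33 and an adjusted p of 1. Without both libraries of CM animal 3 that difference was 0.29. Faap20, a ubiquitin-binding partner of the core complex, had 17.9, 15.6 and 15.4 CPM in WT NIR and 11.5, 12.5 and 11.2 in CM NIR, without overlap. Its log2 difference was -0.48 ± 0.13 without irradiation, with an adjusted p of 0.103 (edgeR) and 0.00866 in DESeq2, and -0.35 ± 0.13 after it, with 0.287. For the difference of the responses the 2 smallest p-values of the list belonged to Rpa3, a subunit of the protein that coats single-stranded DNA, at 0.18 ± 0.15, and to Mcm8, a helicase subunit, at 0.14 ± 0.16, both with an adjusted p of 1.

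The members lie on 16 chromosomes, with 7 of the 38, or 18.4%, on chromosome 11, which holds 7.74% of all counted genes. Overlap with another gene bears on what their counts hold, since the strand setting of the counting is not stated. A gene on the opposite strand overlaps 9 members, and Rad54b shares 8141 bases with Fsbp on the same strand. The widest opposite overlap is that of Fancc with Aopep, over 21388 bases including introns, followed by Xrcc3 with Klc1, over 4653, and Fanci with Polg, over 4034. Eme1 overlaps Lrrc59 over 251 bases, and Lrrc59 held 603682 reads over the 12 libraries against 29754 for Eme1. Of the genes with the smallest p in a comparison between groups, Fancd2 and Fancl are among the 9. Fancd2 shares 259 bases with Fancd2os, which held 25 reads, and Fancl shares 482 bases with Vrk2, which held 28507 reads against 17416 for Fancl.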

How the data were processed

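RNA-seq was analysed from the deposited table of read counts per gene, made by the authors with bcl2fastq 2.18.0.12, TopHat2, HTSeq 0.6.1p1 and the mm10 genome, per the submitters' processing notes. The libraries were stranded and depleted of ribosomal RNA, per the labels' protocols. The strand setting of the counting is not given in the sources used here. The deposited RPKM values, scaled by the authors, were used for levels between genes. Counts were tested with edgeR 4.0.16 in R 4.3.3: filterByExpr (minimum count 10, total 15), TMM, 1 mean per group over all 12 libraries, the quasi-likelihood test and Benjamini-Hochberg adjustment over 14599 genes at 0.05. CPM values are TMM-scaled. Alternatives used DESeq2 1.42.0 and limma 3.58.1. Scripts were tested on simulated data.

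The pairing of NIR with IR libraries by animal comes from the labels. Deviations from group means correlated at 0.672, 0.504 and 0.412 within WT animals and at 0.790, 0.844 and 0.125 within CM animals, while CM NIR 3 correlated at 0.686 with CM IR 1. The animal block fit is given for all genes, for the members by counts and for some members named in WT and CM. In WT it is also given for the mitosis, DNA replication, erythroid, neutrophil and macrophage lists. For the other pathway genes it is given by the calls in WT and CM and the lowest adjusted p in WT. For the remaining lists, and for all marker lists in CM, it is not given. Nothing else ties animals across genotypes.

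The members, roles and lists were chosen with earlier results of these data known. Named genes are the 3 members with the smallest p in each comparison and the member with the highest mean RPKM in each role; for the other pathway genes the 2 with the smallest p. Further named genes, among them Rbbp8 and Brca2, and those in lists by pattern, were picked after their values were seen.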

Additional observations from a re-analysis of the deposited data

How the results depend on the processing

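No member passed an adjusted p of 0.05 in any comparison under any alternative run except 1. With the replicate number as a block for CM against WT without irradiation, which shares only a number across genotypes (correlations of 0.528, 0.383 and -0.365 in NIR libraries and 0.390, 0.128 and 0.142 in IR libraries), 854 genes were called, 297 of them lower, and 1 member, Rad51b, at -0.54 ± 0.11 and an adjusted p of 0.0336. It also called Dmc1 and Faap20, at adjusted p-values of 0.0427 and 0.0449. The same block after irradiation called 416 genes, against 97 without it. The animal block called 163 genes for IR in WT, against 17, and 0 in CM, against 1. Calls over all genes moved more than those of the members. DESeq2 called 140 for IR in WT, 18 in CM, 922 for CM against WT without irradiation, against 237, and 652 after it. limma-voom called 31 for IR in WT and 156 for CM against WT after irradiation. For the latter the filter of at least 1 CPM in 3 libraries gave 57, the library number series 14 and log2(RPKM + 1) 162. For IR in WT log2(RPKM + 0.1) gave 40 and log2(RPKM + 1) gave 52, and for the difference of the responses log2(RPKM + 1) gave 1. Without CM animal 3 the calls were 0 for IR in CM and 147 without and 204 after irradiation for the genotypes, and 21 members lay below 0 in the difference of the responses, against 12. The cause of these moves was not tested.

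Leaving out 1 library at a time gave 1 to 4 genes called for IR in WT, 0 to 3 in CM, 4 to 914 for CM against WT without irradiation and 3 to 270 after it. The median of the members ran from -0.17 to -0.065 in WT and from -0.014 to 0.11 for the difference of the responses, with 7 to 21 members below 0 in the latter. With 1 animal left out, 13 to 30 members were lower in the remaining CM animals, 2 to 4 higher in them, 2 to 4 higher in the remaining WT animals and, without CM animal 3, 22 lower in the rest. Of 425 values of 25 named genes under alternatives, 415 stayed on their side of the threshold with their direction and 10 passed it, all of Dmc1, Faap20 or Rad51b. With 3 animals a group, the standard error of a member limits what could be called. Without a block its median was 0.13 between 2 groups, and 0.18 for the difference of the responses. With the animal as a block it was 0.0622 for IR against NIR in each genotype and 0.088 for the difference of the responses.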
